A study of Homo sapiens with 12 samples.

Results

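The 42 genes described here carry glucose through glycolysis to lactate or belong to the hypoxia response that raises the same enzymes. They were chosen as a fixed list of gene symbols, 26 for glycolysis and lactate handling and 16 for the hypoxia-inducible factors (HIF), their hydroxylases and their target genes. The list was drawn up with earlier results of these data known, so it is not a blind choice. Each symbol was matched in the gene column of the deposited count tables, and all 42 were found among 26499 genes. All 42 also passed the filter on low counts, which left 15506 genes to test. The data are polyadenylated RNA from 2 established human melanoma cell lines, A375 and SKMel28, each as cells resistant to vemurafenib and as sensitive cells. Vemurafenib blocks mutant BRAF, a kinase active in many melanomas, and the series asked about IGF1 signalling in cells that no longer respond to BRAF and MEK inhibitors. All cells were grown in DMEM with 10% serum, resistant A375 and resistant SKMel28 with 1 µmol/L vemurafenib in the medium, while the labels give no drug for sensitive A375 or sensitive SKMel28. Each of the 4 groups held 3 libraries, and the resistant state cannot be told apart from exposure to the drug. The labels name no culture in low oxygen. They do not say whether the resistant cells are clones or whether replicate libraries stem from independent cultures. The p-values therefore reflect the spread among these libraries, which may be technical.

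Glycolysis takes up glucose through membrane transporters, traps it by phosphorylation, splits it and oxidises the pieces to pyruvate, which lactate dehydrogenase turns into lactate for export. Hypoxia-inducible factors pair an oxygen-sensitive alpha subunit with the constitutive partner ARNT, and prolyl hydroxylases mark the alpha subunit for destruction when oxygen is present. In low oxygen the stabilised factor binds short response elements and raises glucose transporters, most glycolytic enzymes, pyruvate dehydrogenase kinases and lactate export, and melanomas with mutant BRAF are known for high glycolytic activity.

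Libraries held 28496518 to 37721363 assigned reads, and 1 CPM (counts relative to the library total after TMM scaling) stood for at least 28 reads. The biological coefficient of variation was 4.20%, so that small changes could pass the test. Summed over 9 melanocyte and melanoma markers, levels were 379.6 to 391.0 CPM in sensitive A375, where 4 of the 9 reached 1 CPM, and 32.0 to 34.7 CPM in resistant A375, where 1 did. TYR had no read in either A375 group. SOX10 held most of the sum in sensitive A375, at 325.4 CPM against 0.138 CPM in resistant A375. Both SKMel28 groups had all 9 markers at 1 CPM or more, with sums of 7532 to 7980 CPM in sensitive and 11074 to 11210 CPM in resistant cells. The sums of 5 keratinocyte, 6 fibroblast and 4 endothelial markers were at most 124.3, 26.9 and 6.50 CPM. The 4 leukocyte markers summed to between 28.8 CPM in sensitive A375 and 763.8 CPM in resistant SKMel28, and in every group CD68 was the 1 marker of the 4 at 1 CPM or more, while CD3E had no read. Their part in the results was not tested. In such bulk RNA, fewer cells expressing a gene and less RNA per cell cannot be told apart.

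In A375, 33 of the 42 genes passed the test between resistant and sensitive cells (edgeR quasi-likelihood, adjusted p below 0.05 over all genes, two-sided), 12 higher and 21 lower in resistant cells. Among all genes tested, 51.3% passed, 25.0% higher and 26.3% lower. In SKMel28, 36 of the 42 passed, 10 higher and 26 lower, against 70.0% of all genes, 34.2% higher and 35.8% lower. The median log2 fold change of the 42 was -0.08 in A375 and -0.25 in SKMel28, beside 0.00 and -0.01 over all genes tested. The A375 median was -0.03 without resistant library 3, -0.04 without resistant library 2 and -0.05 under DESeq2, library-size scaling or no filter, while the SKMel28 median stayed between -0.28 and -0.23 under the alternatives run. Over all genes the A375 median in these settings was 0.023 to 0.029, and 0.00 with no filter, so the baseline moved as well. Differences between the lines are A375 minus SKMel28, and values after ± are standard errors for log2 fold changes and SDs over 3 libraries for levels and shares. Most of these genes are abundant, and abundant genes pass more often. Among genes at a mean of 10 CPM or more, 59.3% passed in A375 and 79.9% in SKMel28, beside 29 and 32 of the 37 listed genes at that level. In 35 of the 42 genes the 3 resistant and 3 sensitive A375 libraries did not overlap, beside 57.9% of all genes, and in SKMel28 this held for 38, beside 71.1%.

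Most changes were small. Falls of at least 2-fold were called in 4 genes in A375 (SLC2A1, EGLN3, CA9 and DDIT4; 6.44% of all genes; CA9 at -0.57 without sensitive library 3 and -0.96 without resistant library 2) and in 8 genes in SKMel28 (HK2, PFKFB4, ALDOC, PGK1, SLC16A3, VEGFA, CA9 and DDIT4; 12.1% of all genes). Rises of at least 2-fold were called for EPAS1 and CA12 in A375 (4.06% of all genes; EPAS1 at 0.90 to 0.97 without sensitive library 1, sensitive library 3 or resistant library 3) and for PFKFB2 and EPAS1 in SKMel28 (8.66% of all genes). In both lines 18 of the 42 were called lower, beside 9.83% of all genes, and 6 were called higher, beside 8.65%. Some of these rest on A375 calls that were lost under some of the alternatives run. They are HK1, HK2, PFKL, PDK1 and CA9 among the 18, and PGAM1 and BNIP3 among the 6. A further 6 were called in opposite directions, beside 20.1% of all genes. The change itself differed between the lines for 31 of the 42 genes, 20 of them with a higher value in A375 and 11 with a lower one, beside 63.8%, 31.4% and 32.4% of all genes.

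**Figure D1:**
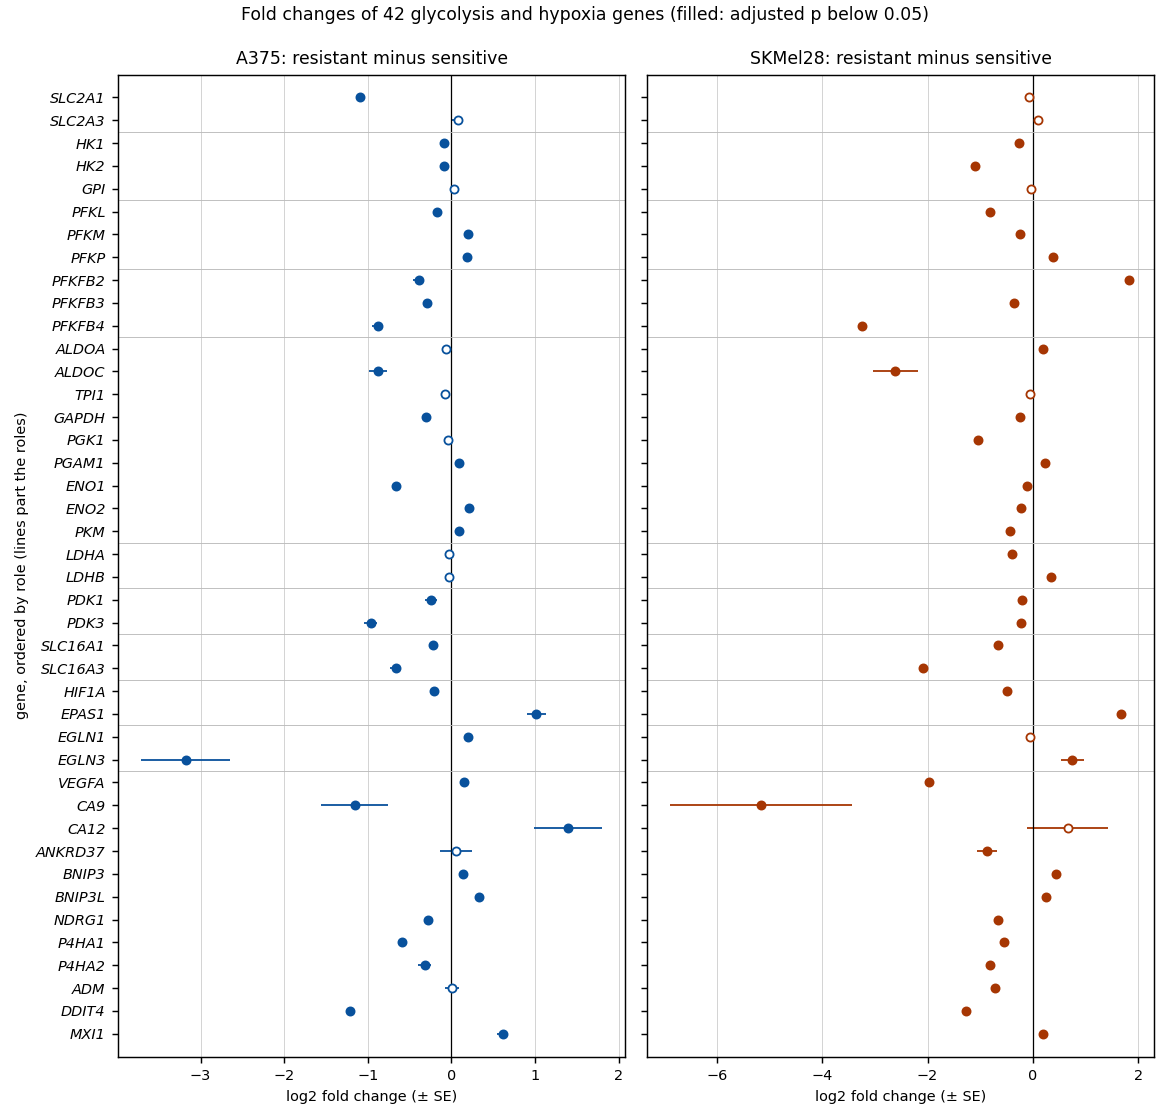
Fitted log2 fold change of each of the 42 genes, resistant minus sensitive, in A375 (left) and SKMel28 (right), with bars of 1 standard error and filled points for adjusted p below 0.05; the 2 panels have different x scales, and the CA9 value in SKMel28 is fitted against 0 reads and is no measure of size. PFKFB4 lies furthest left among the well-expressed genes in SKMel28 at -3.24, PFKFB2 furthest right at 1.82, and DDIT4 sits at -1.21 and -1.27 in the 2 lines.

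Reads of the 26 glycolysis and lactate genes made up 2.26% ± 0.0139 of all assigned reads in sensitive A375 and 2.02% ± 0.0174 in resistant A375 (mean ± SD, n = 3). The sum was 2.02% ± 0.0318 in sensitive SKMel28 and 1.69% ± 0.0366 in resistant SKMel28, and in neither line did the libraries of the 2 groups overlap. GAPDH alone held a large part of these sums, and without it the other 25 genes made up 1.53% and 1.41% in sensitive and resistant A375, and 1.54% and 1.30% in sensitive and resistant SKMel28. ENO1, among these 25, went from 348512 reads in sensitive to 219680 in resistant A375. That fall was about as large as the fall of the 25 together, so the A375 sum does not show a broad decrease. The 16 HIF and hypoxia genes together made up 0.0897% and 0.0798% in A375 and 0.123% and 0.0983% in SKMel28, sensitive first. These sums are descriptions and were not tested. Mitochondrially encoded genes took 4.51% ± 0.140 of assigned reads in sensitive and 6.95% ± 0.161 in resistant SKMel28, and 1.92% ± 0.0702 and 2.21% ± 0.0850 in A375 (SD, n = 3). Their part in these sums was not tested.

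Promoter windows are shown for 5 genes whose levels are described next, because the hypoxia response element that HIF binds has the core ACGTG or GCGTG. Each is the 250 bases before a transcript start from the RefSeq promoter table (GRCh38.p14), read 5′ to 3′ on the plus strand, with ACGTG on either strand in capitals. A CACGTG holds the core on both strands and counts as 2 matches. PGK1, HK2 and LDHA encode glycolytic enzymes that were lower in resistant SKMel28, DDIT4 was lower in both resistant lines, and EPAS1 was higher in both. These 5 are not the genes that moved most and do not stand for the whole list. PFKFB4 (-3.24 in SKMel28) and SLC2A1 (-1.09 in A375) fell further than LDHA (-0.39 in SKMel28). Their windows hold 0 ACGTG and are not shown. The windows lie at chrX:78103998-78104247 (PGK1), chr2:74834920-74835169 (HK2), chr11:18394313-18394562 (LDHA), chr10:72273674-72273923 (DDIT4) and chr2:46297157-46297406 (EPAS1).
PGK1: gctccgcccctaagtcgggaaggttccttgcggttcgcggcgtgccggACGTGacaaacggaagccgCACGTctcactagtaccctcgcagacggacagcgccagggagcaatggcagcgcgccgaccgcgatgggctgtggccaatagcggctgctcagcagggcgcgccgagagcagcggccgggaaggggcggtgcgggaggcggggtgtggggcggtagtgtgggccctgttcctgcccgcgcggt
HK2: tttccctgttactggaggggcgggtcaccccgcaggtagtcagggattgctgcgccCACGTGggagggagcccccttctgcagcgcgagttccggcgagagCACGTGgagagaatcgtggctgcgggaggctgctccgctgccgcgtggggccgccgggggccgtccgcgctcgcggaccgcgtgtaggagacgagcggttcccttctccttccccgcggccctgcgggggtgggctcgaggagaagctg
LDHA: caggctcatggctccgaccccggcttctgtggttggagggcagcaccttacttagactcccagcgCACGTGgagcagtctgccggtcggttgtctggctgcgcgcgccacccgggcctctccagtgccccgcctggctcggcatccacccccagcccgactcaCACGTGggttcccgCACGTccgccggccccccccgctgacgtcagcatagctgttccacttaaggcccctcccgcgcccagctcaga
DDIT4: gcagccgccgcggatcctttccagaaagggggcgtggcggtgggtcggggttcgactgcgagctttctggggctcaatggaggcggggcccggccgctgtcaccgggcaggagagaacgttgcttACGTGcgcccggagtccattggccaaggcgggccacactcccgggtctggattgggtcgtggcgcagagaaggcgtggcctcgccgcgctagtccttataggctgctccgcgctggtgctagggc
EPAS1: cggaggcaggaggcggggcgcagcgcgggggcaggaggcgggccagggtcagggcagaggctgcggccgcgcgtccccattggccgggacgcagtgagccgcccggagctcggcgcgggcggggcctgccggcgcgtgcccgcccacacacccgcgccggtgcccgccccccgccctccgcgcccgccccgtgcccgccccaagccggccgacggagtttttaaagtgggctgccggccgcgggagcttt
The PGK1 window holds 2 ACGTG cores, the HK2 window 4, the LDHA window 5 and the DDIT4 window 1, and none occurs in the EPAS1 window. In the 300-base windows described next, GCGTG occurs once or more for each of these genes, with 1 match for PGK1, 2 for HK2, 1 for LDHA, 3 for DDIT4 and 1 for EPAS1. HK2 and LDHA have another window each in the table, and the one with more ACGTG is shown; the other holds 2 for HK2 and 0 for LDHA. Windows of 300 bases, from 250 before to 50 after the start, were found for 36 of the 42 genes, 65 windows in all. ACGTG occurred in 26 of the 65 (40.0%), beside 21.4% of all 35116 windows in the table. By gene, 22 of the 36 held it in a window, and some genes, such as PFKM and HK1, have many windows. GCGTG occurred in 28 of the 65 (43.1%), beside 36.5% of all windows, and either core in 44 (67.7%), beside 48.4%. A match is a run of letters and not a measured binding site. The genes were listed in part as hypoxia targets, so a higher share may come from that choice. Whether the cores go with the changes in these cells was not tested.

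Of the 2 glucose transporters, SLC2A1 fell by more than 2-fold in A375. SLC2A1 (ENSG00000117394.21, chr1:42925375-42959176, minus strand) encodes the main glucose transporter of many cells and tumours. Its level was 359.7, 355 and 378 CPM in sensitive A375 and 169.6, 173 and 169 CPM in resistant A375. Every resistant A375 library lay at about the level of SKMel28, which had 178, 171 and 172 CPM in sensitive and 169, 166 and 161 CPM in resistant cells. The log2 fold change was -1.09 ± 0.04 (adjusted p = 4.54e-28) in A375 and -0.07 ± 0.04 (adjusted p = 0.073) in SKMel28, and these changes differed by -1.02 ± 0.05 (adjusted p = 9.16e-22). SLC2A3, a high-affinity glucose transporter, was lower than SLC2A1 in every group per kilobase and was not called in either line. Its levels ran from 27.2 to 36.9 CPM over the 12 libraries.

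Of the hexokinases, which phosphorylate glucose on entry, HK2 fell in SKMel28 by more than 2-fold. HK2 (ENSG00000159399.9, chr2:74833981-74893359, plus strand), an inducible form that binds mitochondria and is high in many tumours, stood at 399.6, 429.6 and 414 CPM in sensitive and 201, 187 and 193 CPM in resistant SKMel28. All resistant SKMel28 libraries had under 202 CPM and all sensitive ones close to 400 CPM or above. A375 had less HK2 in both states, 107, 107 and 107 CPM in sensitive and 103, 98.7 and 98.7 CPM in resistant cells. For HK2 the log2 fold change was -1.10 ± 0.04 (adjusted p = 2.5e-28) in SKMel28 and -0.09 ± 0.04 (adjusted p = 0.0396) in A375, a difference of 1.00 ± 0.05 (adjusted p = 7.82e-21). HK1, the widely expressed hexokinase, had 248, 252 and 258 CPM in sensitive and 210.2, 213 and 209 CPM in resistant SKMel28, and 139, 144 and 141 CPM against 136, 129 and 133 CPM in A375. HK1 changed by -0.26 ± 0.04 (adjusted p = 7.2e-09) in SKMel28 and -0.09 ± 0.04 (adjusted p = 0.0333) in A375. The A375 libraries of the 2 groups are close for both hexokinases, and the A375 calls of HK1 and HK2 were lost under DESeq2 (adjusted p = 0.184 and 0.227). GPI, which converts glucose phosphate to fructose phosphate, was not called in either line and ran from 449.8 to 535.1 CPM over all libraries.

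All 3 phosphofructokinases, which commit sugar to glycolysis, were called in both lines, and their makeup shifted in SKMel28. PFKL, the liver-type subunit, had 177, 172 and 188 CPM in sensitive and 98.7, 108 and 98.2 CPM in resistant SKMel28, a change of -0.82 ± 0.05 (adjusted p = 5.87e-19). In A375 it had 67.7, 71.2 and 71.03 CPM and 56.6, 67.2 and 62.8 CPM, a small fall (-0.17 ± 0.05, adjusted p = 0.00447). That A375 call was lost without resistant library 1, the lowest of the 3 (adjusted p = 0.247). PFKM, the muscle-type subunit, moved in opposite directions. Its level was 86.3, 90.1 and 86.6 CPM in sensitive and 101, 102 and 97.6 CPM in resistant A375, and 171, 173 and 178 CPM and 149, 148 and 145 CPM in SKMel28. The log2 fold changes were 0.19 ± 0.04 (adjusted p = 4.45e-05) and -0.25 ± 0.04 (adjusted p = 1.81e-07), and they differed by 0.44 ± 0.05 (adjusted p = 1.75e-09). Of the PFKM exon bases, 8.58% overlap SENP1 on the opposite strand, whose reads cannot be told apart by unstranded counting. Overlaps with other genes also took 7.66% of the BNIP3L, 6.45% of the P4HA2 and 6.04% of the SLC16A3 exon bases, and smaller ones occur in further genes. PFKP, the platelet-type subunit, was higher in both resistant lines, with 210.3, 205 and 211 CPM against 236, 247 and 229 CPM in A375 and 165, 159 and 164 CPM against 206, 211 and 218 CPM in SKMel28, sensitive first. No resistant PFKP library overlapped the sensitive ones, and the rises were 0.18 ± 0.04 (adjusted p = 2.93e-05) in A375 and 0.38 ± 0.04 (adjusted p = 1.73e-12) in SKMel28.

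The PFKFB enzymes make and remove the fructose bisphosphate that activates phosphofructokinase, and in SKMel28 they held both the largest rise of the glycolysis genes and a fall of more than 8-fold. PFKFB2 (ENSG00000123836.14, chr1:207034366-207081024, plus strand), a form regulated by phosphorylation in heart and other tissues, had 38.3, 38.2 and 38.3 CPM in sensitive and 142, 133 and 129.8 CPM in resistant SKMel28. All resistant SKMel28 libraries exceeded 129 CPM, while A375 had 22.7, 21.6 and 20.6 CPM in sensitive and 17.7, 15.2 and 16.6 CPM in resistant cells. PFKFB2 rose by 1.82 ± 0.05 (adjusted p = 2.31e-30) in SKMel28 and changed by -0.39 ± 0.06 (adjusted p = 1.41e-06) in A375, a difference of -2.21 ± 0.08 (adjusted p = 5.26e-26). PFKFB4 (ENSG00000114268.11, chr3:48517684-48562015, minus strand), a hypoxia-inducible form, had 106, 103 and 106 CPM in sensitive SKMel28. In resistant SKMel28 it had 10.9, 11.2 and 11.3 CPM, and all 3 libraries were near 11 CPM. Sensitive A375 held 38.9, 35.5 and 40.1 CPM and resistant A375 21.00, 19.2 and 21.8 CPM, again without overlap. The log2 fold change was -3.24 ± 0.06 (adjusted p = 4.89e-37) in SKMel28 and -0.88 ± 0.06 (adjusted p = 1.11e-16) in A375, so PFKFB4 fell in both lines and further in SKMel28 (2.36 ± 0.09, adjusted p = 4.31e-26). PFKFB3, the form with the strongest kinase activity, fell slightly in both, from 55.6, 59.3 and 61.5 CPM to 47.8, 47.6 and 48.4 CPM in A375 and from 125, 129.5 and 131 CPM to 98.7, 101 and 98.9 CPM in SKMel28. Its log2 fold changes were -0.29 ± 0.05 (adjusted p = 6.28e-07) and -0.37 ± 0.04 (adjusted p = 2.06e-10), and a difference between them was not called (0.08 ± 0.06, adjusted p = 0.288).

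**Figure D2:**
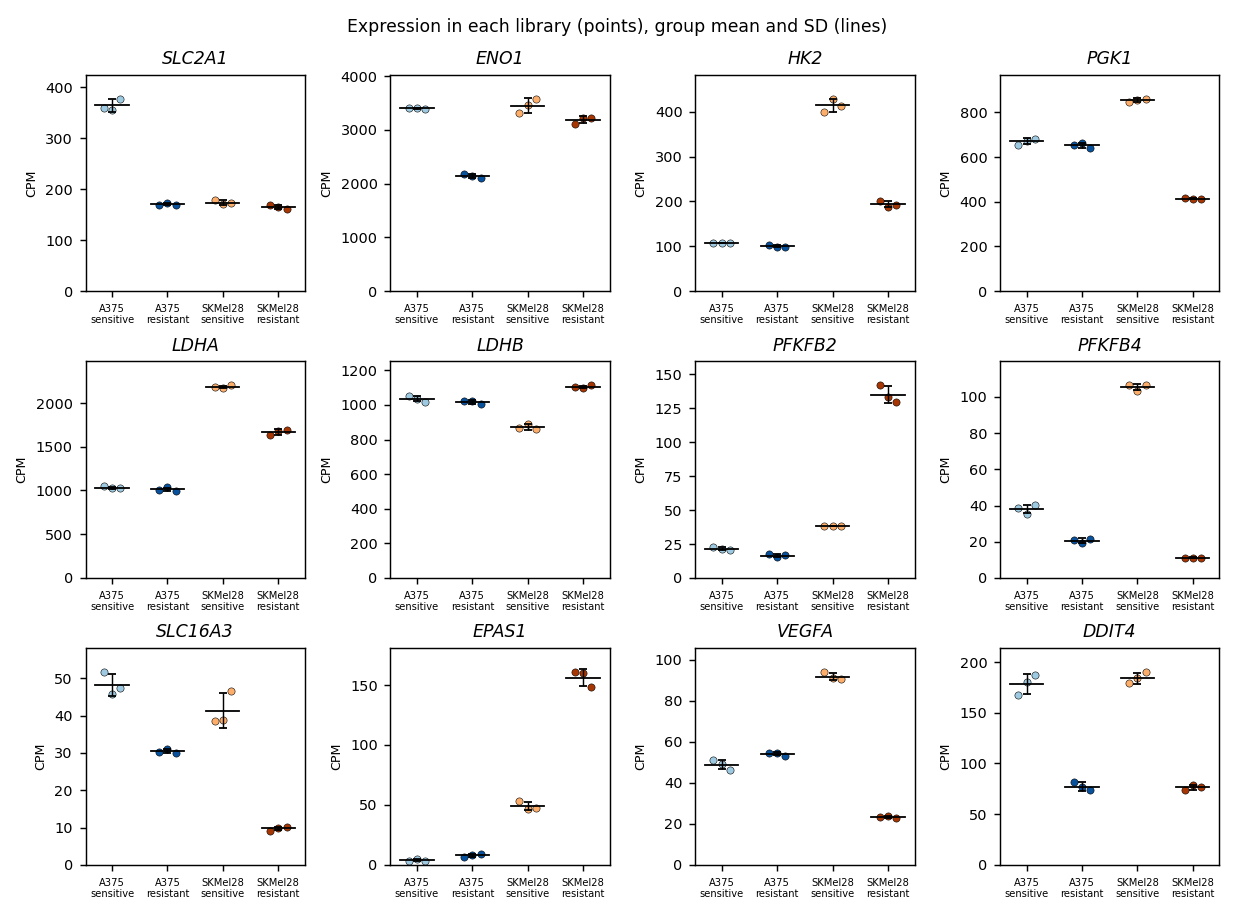
CPM of 12 genes in each of the 12 libraries, with 1 point per library, lines at each group mean and its SD, and the 4 groups on the x axis; each panel has its own linear y axis starting at 0. SLC2A1 is high in sensitive A375 alone, PFKFB2 in resistant SKMel28 alone, and DDIT4 is lower in both resistant groups.

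Of the 9 genes of lower glycolysis, 3 were called higher and 3 lower in A375, and 2 higher and 6 lower in SKMel28, or 66.7% and 88.9% beside 51.3% and 70.0% of all genes. PGK1 (ENSG00000102144.14, chrX:77910739-78129296, plus strand), which makes the first ATP of the pathway, had 845, 855 and 862 CPM in sensitive and 417, 413 and 410.4 CPM in resistant SKMel28. Every resistant SKMel28 library lay below every other library of the study. In A375 the groups overlapped, with 656, 673 and 682 CPM in sensitive and 654, 661 and 641 CPM in resistant cells. The log2 fold change was -1.05 ± 0.03 (adjusted p = 5.46e-30) in SKMel28 and -0.04 ± 0.03 (adjusted p = 0.289) in A375, and the difference was 1.01 ± 0.04 (adjusted p = 9.82e-24). ENO1 (ENSG00000074800.15, chr1:8861000-8879250, minus strand), the main enolase, had the opposite distribution, with 3398, 3402 and 3396 CPM in sensitive and 2183, 2148 and 2099 CPM in resistant A375. SKMel28 held 3306, 3453 and 3581 CPM in sensitive and 3111, 3223 and 3227 CPM in resistant cells, a narrow gap. ENO1 changed by -0.67 ± 0.03 (adjusted p = 3.32e-22) in A375 and -0.11 ± 0.03 (adjusted p = 0.00127) in SKMel28, and these falls differed (-0.55 ± 0.04, adjusted p = 8.21e-15).

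GAPDH, which oxidises the split sugar, fell in both lines. It had 6881, 6862 and 6953 CPM in sensitive and 5712, 5618 and 5492 CPM in resistant A375, and 4968, 4978 and 5196 CPM and 4053, 4259 and 4393 CPM in SKMel28. The log2 fold changes were -0.30 ± 0.03 (adjusted p = 3.88e-11) in A375 and -0.25 ± 0.03 (adjusted p = 1.22e-09) in SKMel28, and a difference between the lines was not called (-0.05 ± 0.04, adjusted p = 0.372). GAPDH has 62 pseudogenes named in the annotation. Reads aligned to more than 1 place were not assigned to a gene, so reads shared with such copies may be missing from its count. The share of reads aligned to more than 1 place was 4.23% ± 0.235 in sensitive and 2.26% ± 0.176 in resistant SKMel28 (SD, n = 3), and 4.78% ± 0.360 and 4.65% ± 0.124 in A375. Its part in the changes of GAPDH and of the other genes with several named pseudogenes (BNIP3 with 39, PGAM1 with 13, LDHA with 6, PKM with 5, ENO1 and TPI1 with 4 each) was not tested.

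PKM, the pyruvate kinase that yields the last ATP, and ENO2, the neuronal enolase, both moved in opposite directions in the lines. PKM had 3592, 3541 and 3617 CPM in sensitive and 3880.3, 3812 and 3775 CPM in resistant A375, and 3539, 3598 and 3695 CPM and 2613, 2695 and 2650.4 CPM in SKMel28. In A375 its resistant libraries were slightly above the sensitive ones, while in SKMel28 they were clearly below. PKM changed by 0.09 ± 0.03 (adjusted p = 0.00691) in A375 and -0.45 ± 0.03 (adjusted p = 1.51e-17) in SKMel28, and gene counts do not separate the splice forms of PKM. ENO2 had 60.1, 54.9 and 57.00 CPM and 67.6, 63.2 and 68.3 CPM in A375 and 121, 121 and 128 CPM and 104, 104 and 106 CPM in SKMel28, sensitive first. It rose by 0.21 ± 0.05 (adjusted p = 0.000139) in A375 and changed by -0.23 ± 0.04 (adjusted p = 6.74e-06) in SKMel28. PGAM1, a phosphoglycerate mutase, was slightly higher in both resistant lines, from 355, 369 and 374 CPM to 387, 390.0 and 391 CPM in A375 and from 267, 266 and 271 CPM to 323, 312 and 305 CPM in SKMel28. Its rises were 0.09 ± 0.03 (adjusted p = 0.0214) and 0.22 ± 0.03 (adjusted p = 1.02e-07), and the A375 call was lost without sensitive library 1 (adjusted p = 0.165).

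The 2 aldolases, which split the sugar, did not move alike. ALDOC, the brain-type aldolase, was a minor gene that fell in both lines. It had 20.8, 21.01 and 25.9 CPM in sensitive and 13.3, 12.01 and 11.4 CPM in resistant A375 (-0.88 ± 0.10, adjusted p = 1.33e-09). SKMel28 held little ALDOC, with 0.867, 0.672 and 0.749 CPM in sensitive and 0.0307, 0.158 and 0.175 CPM in resistant cells, or 69 against 12 reads (-2.61 ± 0.42, adjusted p = 4.72e-07). ALDOA, the abundant form, ran from 1321 to 1829 CPM over all libraries. It was called higher in resistant SKMel28 although 1 resistant library lay inside the sensitive range (0.19 ± 0.04, adjusted p = 2.95e-05) and was not called in A375 (-0.06 ± 0.04, adjusted p = 0.174). TPI1, which interconverts the split products, was not called in either line and ran from 747.6 to 1079.9 CPM.

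The lactate dehydrogenases moved apart in SKMel28 and were not called in A375. LDHA, the subunit that favours lactate formation, had 2178, 2173 and 2200.4 CPM in sensitive and 1632, 1675 and 1694 CPM in resistant SKMel28. LDHB, the subunit that favours lactate oxidation, had 866, 891 and 859.6 CPM in sensitive and 1105, 1099 and 1113 CPM in resistant SKMel28. LDHA was lower and LDHB higher in all 3 resistant libraries. The log2 fold changes were -0.39 ± 0.03 (adjusted p = 1.9e-15) for LDHA and 0.34 ± 0.03 (adjusted p = 1.38e-13) for LDHB. In A375 the libraries of the 2 groups overlapped for both genes, with 993 to 1047 CPM of LDHA and 1003 to 1053 CPM of LDHB. The changes of LDHA and LDHB differed between the lines (0.36 ± 0.04, adjusted p = 5.44e-10 and -0.37 ± 0.04, adjusted p = 3.2e-10).

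Pyruvate dehydrogenase kinases hold pyruvate back from mitochondria. Both listed kinases, PDK1 and PDK3, and both listed lactate transporters, SLC16A1 and SLC16A3, were lower in both resistant lines. PDK3 had 17.7, 17.96 and 19.2 CPM in sensitive and 9.11, 10.1 and 8.84 CPM in resistant A375, and 40.5, 40.1 and 38.3 CPM and 33.8, 32.4 and 35.7 CPM in SKMel28. The resistant libraries lay below the sensitive ones in both lines, with the larger fall in A375 (-0.96 ± 0.08, adjusted p = 3.15e-14 in A375 and -0.22 ± 0.07, adjusted p = 0.00245 in SKMel28). The difference between the lines was -0.74 ± 0.10 (adjusted p = 2.4e-08). PDK1, a classical HIF target, had 17.1, 18.1 and 18.4 CPM and 14.3, 15.8 and 15.1 CPM in A375 and 41.4, 43.4 and 42.4 CPM and 37.01, 38.2 and 34.4 CPM in SKMel28, sensitive first. Its falls were small in both lines (-0.25 ± 0.07, adjusted p = 0.00377 and -0.22 ± 0.06, adjusted p = 0.00206). The A375 call of PDK1 was lost without resistant library 1 (adjusted p = 0.0606).

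SLC16A3, the hypoxia-inducible lactate exporter, fell furthest of this group in SKMel28. It had 38.5, 38.98 and 46.7 CPM in sensitive and 9.15, 9.99 and 10.1 CPM in resistant SKMel28, and 51.6, 45.9 and 47.6 CPM and 30.4, 31.1 and 29.9 CPM in A375. Resistant SKMel28 held the lowest SLC16A3 of the 4 groups. The log2 fold change was -2.09 ± 0.08 (adjusted p = 1.46e-26) in SKMel28 and -0.67 ± 0.07 (adjusted p = 9.6e-12) in A375, a difference of 1.42 ± 0.10 (adjusted p = 3.42e-16). SLC16A1, which carries lactate in both directions, had 251, 252 and 256 CPM and 163, 159 and 157 CPM in SKMel28 and 159.5, 165 and 160.0 CPM and 137, 134 and 144 CPM in A375, sensitive first. Its resistant libraries lay below the sensitive ones in each line (-0.67 ± 0.04, adjusted p = 1.4e-20 in SKMel28 and -0.22 ± 0.04, adjusted p = 1.35e-06 in A375).

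The 2 HIF alpha subunits moved in opposite directions in both lines. HIF1A had 208, 213 and 201 CPM in sensitive and 175, 185 and 180.5 CPM in resistant A375, and 432, 409 and 412 CPM and 306, 294 and 285 CPM in SKMel28. It was lower in every resistant library of each line (-0.21 ± 0.04, adjusted p = 6.71e-06 in A375 and -0.50 ± 0.04, adjusted p = 1.67e-16 in SKMel28). EPAS1 (ENSG00000116016.13, chr2:46293667-46386703, plus strand), which encodes the alpha subunit also known from endothelium and kidney cancer, had 53.1, 46.5 and 47.5 CPM in sensitive and 161, 160.0 and 148 CPM in resistant SKMel28. In A375 it was scarce, with 3.38, 4.79 and 3.59 CPM in sensitive and 6.85, 8.12 and 8.69 CPM in resistant cells. EPAS1 rose by 1.67 ± 0.06 (adjusted p = 1.48e-24) in SKMel28 and 1.01 ± 0.11 (adjusted p = 7.75e-10) in A375, and the rise in SKMel28 was larger (-0.66 ± 0.13, adjusted p = 3.45e-05). HIF activity is set largely by protein stability, which these RNA data do not measure.

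The prolyl hydroxylases that mark HIF alpha differed in abundance. EGLN1, the main oxygen sensor, ran from 78.2 to 133.2 CPM over all libraries, was called higher in resistant A375 (0.20 ± 0.04, adjusted p = 0.000193) and was not called in SKMel28 (-0.05 ± 0.04, adjusted p = 0.263). EGLN3, a hypoxia-inducible form, had 0.403, 0.976 and 0.599 CPM in sensitive and 0.112, 0.0892 and 0 CPM in resistant A375, or 66 against 7 reads. In SKMel28 it had 2.60, 2.72 and 2.90 CPM in sensitive and 4.58, 4.92 and 4.29 CPM in resistant cells, or 248 against 452 reads. EGLN3 fell in A375 and rose in SKMel28 (-3.18 ± 0.53, adjusted p = 2.15e-06 and 0.74 ± 0.22, adjusted p = 0.00254), and at these levels its A375 value rests on few reads.

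Of the 12 hypoxia targets outside metabolism, 5 were called higher and 5 lower in A375, and 3 higher and 8 lower in SKMel28, or 83.3% and 91.7% beside 51.3% and 70.0% of all genes. DDIT4 (ENSG00000168209.4, chr10:72273920-72276036, plus strand), an inhibitor of mTOR signalling induced by hypoxia and other stress, fell by more than 2-fold in both lines. It had 168, 180.1 and 188 CPM in sensitive and 81.6, 76.3 and 73.5 CPM in resistant A375, and 179, 184 and 189.9 CPM and 73.5, 78.6 and 77.05 CPM in SKMel28. All 6 resistant libraries lay under 82 CPM and all 6 sensitive ones above 167 CPM. DDIT4 changed by -1.21 ± 0.04 (adjusted p = 2.98e-26) in A375 and -1.27 ± 0.04 (adjusted p = 1.53e-27) in SKMel28. A difference between the lines was not called (0.06 ± 0.06, adjusted p = 0.392). VEGFA (ENSG00000112715.21, chr6:43770184-43786487, plus strand), the vascular growth factor, had 93.9, 90.96 and 90.8 CPM in sensitive and 23.5, 23.9 and 22.9 CPM in resistant SKMel28. The resistant SKMel28 libraries were the lowest of all 12 (-1.97 ± 0.05, adjusted p = 7.51e-32). A375 had 51.1, 49.2 and 46.5 CPM in sensitive and 54.8, 54.8 and 53.2 CPM in resistant cells, a slight rise (0.15 ± 0.05, adjusted p = 0.0105) whose call was lost without sensitive library 3 (adjusted p = 0.0828). The changes of VEGFA differed between the lines by 2.12 ± 0.07 (adjusted p = 1.31e-27).

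The collagen prolyl hydroxylase subunits and NDRG1, a stress-responsive gene, were lower in both resistant lines. P4HA1 had 42.4, 42.4 and 38.6 CPM and 28.2, 27.3 and 26.9 CPM in A375 and 121, 119 and 119 CPM and 84.1, 82.5 and 80.5 CPM in SKMel28, sensitive first, and fell in both (-0.59 ± 0.05, adjusted p = 3.41e-13 and -0.54 ± 0.05, adjusted p = 1.74e-14). P4HA2 had 26.1, 28.8 and 24.7 CPM and 22.5, 17.9 and 23.2 CPM in A375 and 54.9, 60.3 and 61.6 CPM and 34.5, 32.4 and 33.8 CPM in SKMel28. Its fall was larger in SKMel28 (-0.32 ± 0.08, adjusted p = 0.000351 in A375 and -0.81 ± 0.07, adjusted p = 8.74e-14 in SKMel28, 0.49 ± 0.10, adjusted p = 5.57e-05). NDRG1 had 69.6, 74.9 and 76.2 CPM and 61.7, 60.2 and 60.4 CPM in A375 and 31.5, 32.7 and 35.3 CPM and 21.4, 21.1 and 20.7 CPM in SKMel28. The groups of each line did not overlap, and the log2 fold change of NDRG1 was -0.28 ± 0.05 (adjusted p = 1.23e-05) in A375 and -0.66 ± 0.06 (adjusted p = 3.33e-13) in SKMel28.

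The mitophagy receptors BNIP3 and BNIP3L and the MYC antagonist MXI1 were higher in both resistant lines. BNIP3 had 95.5, 103 and 99.7 CPM and 109, 112 and 108 CPM in A375 and 42.6, 41.03 and 40.3 CPM and 55.2, 55.5 and 56.8 CPM in SKMel28, sensitive first. BNIP3L had 49.8, 49.1 and 49.7 CPM and 64.5, 58.5 and 63.02 CPM in A375 and 84.1, 88.1 and 86.9 CPM and 104, 101 and 101 CPM in SKMel28. Neither gene overlapped between groups, and the rises were 0.14 ± 0.04 (adjusted p = 0.00416) and 0.44 ± 0.05 (adjusted p = 5.66e-11) for BNIP3 and 0.32 ± 0.05 (adjusted p = 1.01e-07) and 0.24 ± 0.04 (adjusted p = 4.28e-06) for BNIP3L, A375 first. The BNIP3 call in A375 was lost without sensitive library 1 (adjusted p = 0.054). MXI1 had 15.8, 14.4 and 15.9 CPM and 23.6, 24.4 and 22.5 CPM in A375 and 61.5, 64.8 and 59.6 CPM and 68.98, 72.5 and 71.3 CPM in SKMel28. Its rise was larger in A375 (0.61 ± 0.06, adjusted p = 4.63e-11 against 0.20 ± 0.05, adjusted p = 0.00101, 0.42 ± 0.08, adjusted p = 2.39e-05).

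The remaining targets were scarce or changed in 1 line. ANKRD37, an ankyrin repeat gene, had 2.47, 2.53 and 4.19 CPM and 3.30, 2.74 and 3.39 CPM in A375, where the groups overlapped, and 4.80, 5.11 and 4.10 CPM and 2.49, 2.74 and 2.39 CPM in SKMel28. It fell in SKMel28 (-0.88 ± 0.19, adjusted p = 6.51e-05), and 35.2% of its exon bases overlap UFSP2 on the opposite strand. ADM, the peptide hormone adrenomedullin, ran from 20.6 to 23.2 CPM over the A375 libraries without a call. It fell in SKMel28, where its levels ran from 8.75 to 19.1 CPM (-0.71 ± 0.09, adjusted p = 7.96e-09). The carbonic anhydrases, which buffer acid at the cell surface, were at the edge of detection. CA9 had 190 reads over the sensitive and 88 over the resistant A375 libraries and was called lower there (-1.16 ± 0.40, adjusted p = 0.0141). The call was lost without sensitive library 3, which held the most (-0.57, adjusted p = 0.325), or without resistant library 2 (-0.96, adjusted p = 0.0767). In SKMel28 CA9 had 12 reads in sensitive and 0 in resistant cells, at least 4.4-fold lower against a floor of 3 reads over the group, with libraries that overlapped at 0. Of the CA9 exon bases, 38.5% overlap ARHGEF39 on the opposite strand. CA12 had 47 reads in sensitive and 124 in resistant A375 (1.40 ± 0.41, adjusted p = 0.00358) and 8 and 14 reads in SKMel28.

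Shares within gene families, from CPM per kilobase of each gene's principal transcript, describe which form led in each group. LDHA made up 38.8% ± 0.189 of the LDHA and LDHB level in sensitive A375 and 38.8% ± 0.288 in resistant A375 (mean ± SD, n = 3), and 61.5% ± 0.584 and 48.97% ± 0.444 in sensitive and resistant SKMel28. LDHB thus led in both A375 groups, and with lengths over all exons the LDHB share in SKMel28 was 45.4% in sensitive and 58.0% in resistant cells. HK2 made up 50.6% ± 0.848 of the HK1 and HK2 level in sensitive SKMel28 and 36.5% ± 0.970 in resistant SKMel28, beside 32.1% and 32.0% in sensitive and resistant A375. With lengths over all exons of a gene the SKMel28 shares of HK2 were 63.0% and 48.8%, so that HK2 led in sensitive and HK1 in resistant SKMel28 with either length. PFKP made up 34.7% ± 0.640 of the phosphofructokinases in sensitive and 49.8% ± 1.15 in resistant SKMel28, and led in both A375 groups at 60.6% and 63.0%. The shares of PFKFB2 and PFKFB4 crossed in SKMel28, PFKFB2 going from 8.50% ± 0.0968 to 42.9% ± 1.32 and PFKFB4 from 46.3% ± 0.696 to 7.01% ± 0.240. EPAS1 made up 8.17% ± 0.303 of the HIF1A and EPAS1 level in sensitive and 28.6% ± 0.507 in resistant SKMel28, and 1.41% and 3.21% in sensitive and resistant A375. In A375, where SLC2A1 fell, the SLC2A3 share of the transporter pair went from 6.92% ± 0.430 to 14.4% ± 0.428.

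**Figure D3:**
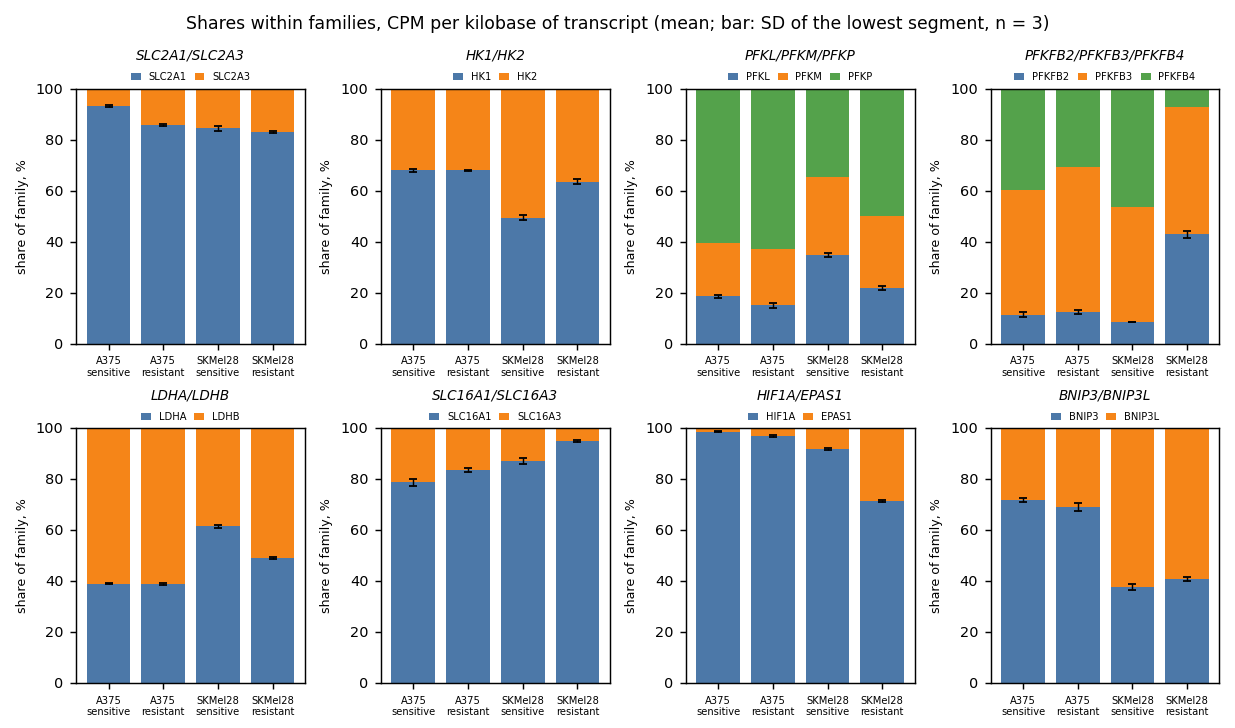
Stacked bars of the share (percent) of each gene within 8 families, from CPM per kilobase of principal transcript, as group means over 3 libraries with the SD of the lowest segment as error bar. The PFKFB bar of resistant SKMel28 stands apart, with 42.9% PFKFB2 and 7.01% PFKFB4.

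Per kilobase of principal transcript, GAPDH had the highest level of the 42 genes in all 4 groups, with 3679 ± 25.6 in sensitive and 2990.4 ± 58.9 in resistant A375 and 2692 ± 68.6 in sensitive and 2259 ± 91.3 in resistant SKMel28 (CPM per kb, mean ± SD). ENO1, PKM and ALDOA held the next 3 places in every group. ENO1 came before PKM in sensitive A375, at 1449 ± 1.29 and 1319 ± 14.2, and after it in resistant A375, at 914 ± 18.1 and 1407 ± 19.6. In resistant SKMel28 ALDOA at 1086 ± 68.5 came before PKM at 976 ± 15.1. HK2 went from place 14 in sensitive to place 20 in resistant SKMel28, PFKFB4 from 23 to 35 and EPAS1 from 31 to 21. At the low end, CA12, EGLN3 and CA9 were each under 2 CPM per kb in all 4 groups. A gene's transcript length changes its place but not its fold change between groups.

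**Figure D4:**
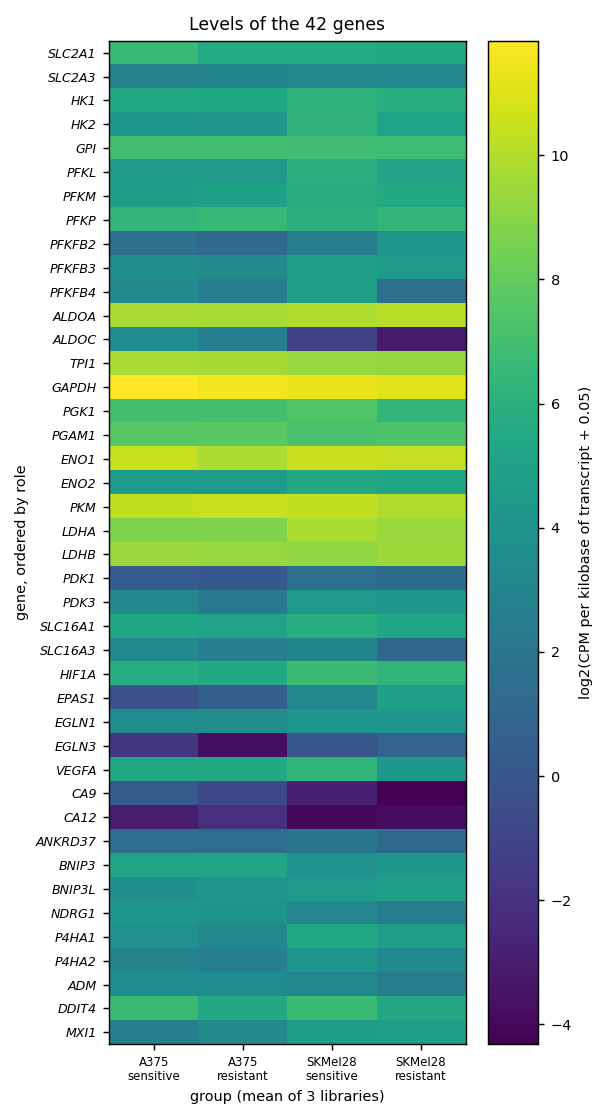
Heat map of the mean level of the 42 genes (rows, by role) in the 4 groups (columns), coloured by log2 of CPM per kilobase of principal transcript plus 0.05, from 3 libraries each. GAPDH is the brightest row in all groups, and CA12, CA9 and EGLN3 are dark in every column, with EPAS1 as dark in sensitive A375 and ALDOC in both SKMel28 groups.

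The genes lie on many chromosome arms, and the median change differed between arms. Median log2 fold changes over genes at 2 CPM or more ran from -0.53 to 0.19 over 41 arms in A375 and from -0.69 to 0.50 in SKMel28. The lowest A375 median, -0.53 over 659 genes, belongs to 1p, which carries SLC2A1, ENO1 and SLC16A1. Relative to that median, ENO1 stood at -0.14, SLC2A1 at -0.57 and SLC16A1 at 0.30, so that the ENO1 change lay close to its arm's median. In SKMel28 the highest median, 0.50, belongs to 10p, where PFKP stood at -0.12 and PFKFB3 at -0.87 relative to the arm. The lowest, -0.69, belongs to Xp, where PDK3 stood at 0.47 relative to the arm. The largest SKMel28 changes were far from their arm medians. PFKFB4 stood at -3.43 relative to 3p, PFKFB2 at 2.06 relative to 1q, VEGFA at -1.97 relative to 6p and SLC16A3 at -1.90 relative to 17q. DDIT4, on 10q, stood at -1.25 relative to the arm in A375 and -1.62 in SKMel28. Of the other listed genes on 10q, whose SKMel28 median was 0.35, P4HA1 stood at -0.89 and HK1 at -0.61 relative to the arm there. BNIP3 at 0.09, PGAM1 at -0.13 and MXI1 at -0.16, all called higher in resistant SKMel28, lay close to that median. The part of the arms in these changes was not tested.

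**Figure D5:**
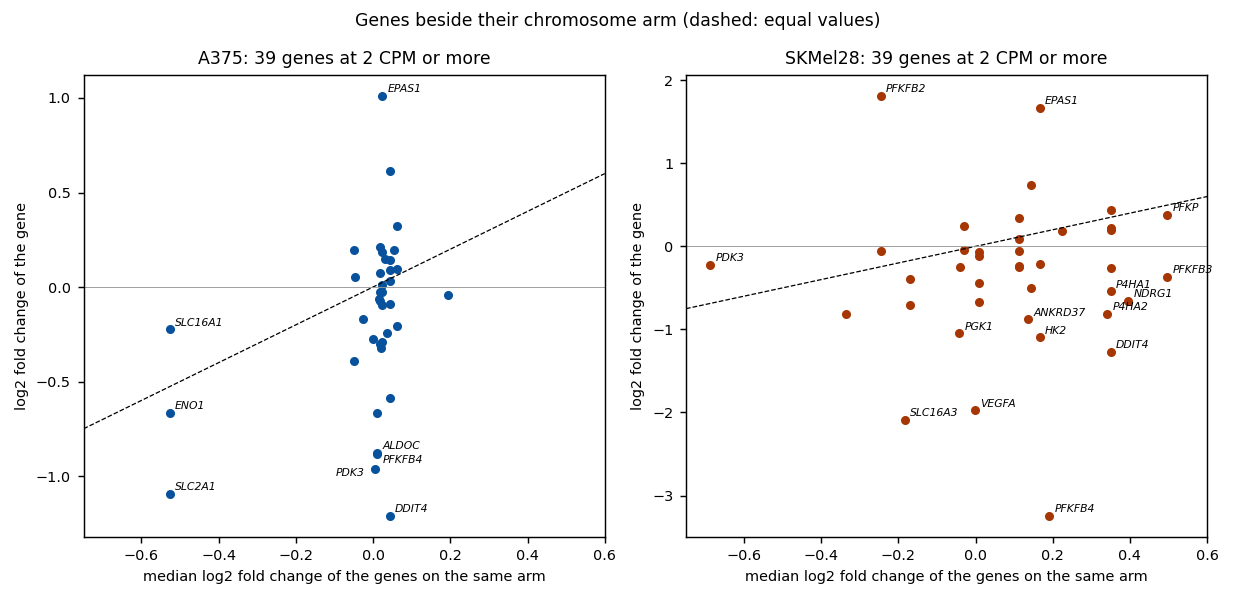
Log2 fold change of each gene at 2 CPM or more (39 genes, y axis) against the median log2 fold change of its chromosome arm (x axis) in A375 (left) and SKMel28 (right); the diagonal marks equality. ENO1 lies near the diagonal at an arm median of -0.53 in A375, and PFKFB4 lies furthest from it in SKMel28.

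The lines also differed among sensitive cells, and several gaps changed sign, were narrower or were wider among resistant cells. Between sensitive A375 and sensitive SKMel28, 39 of the 42 genes were called, 14 higher and 25 lower in A375, beside 82.9%, 42.4% and 40.5% of all genes. Between the resistant cells 39 were called, 16 higher and 23 lower in A375, beside 85.3%, 42.6% and 42.7%. The median log2 difference of the 42 genes, A375 minus SKMel28, was -0.64 in sensitive and -0.23 in resistant cells, beside 0.03 and 0.01 over all genes. Scaling by library size moved the median of all genes to 0.18 and 0.23 and that of the 42 genes to -0.49 and -0.02. The SLC2A1 gap was 1.07 in sensitive cells and 0.05 in resistant cells, where it was no longer called (adjusted p = 0.234). That gap depended on the scaling, and SLC2A1 was called higher in resistant A375 at 0.09 with DESeq2 or its size factors (adjusted p = 0.0103 and 0.0146) and at 0.26 with library-size scaling (adjusted p = 1.12e-08). PGK1 went from -0.35 to 0.66, PFKFB4 from -1.47 to 0.89 and VEGFA from -0.91 to 1.21. These 3 genes were thus higher in SKMel28 among sensitive cells and higher in A375 among resistant cells. HK2 went from -1.96 to -0.95, keeping its direction. PFKFB2 and EPAS1 moved the other way, from -0.82 to -3.03 and from -3.65 to -4.31. The change of each gap is the difference between the lines tested above. ENO1 and PKM had small gaps between the sensitive lines (-0.02 and -0.01) which became 0.13 and 0.14 when scaled by library size. Between the resistant lines the gaps of ENO1 and PKM were -0.57 and 0.53 with TMM scaling. Among other genes with a wider gap in resistant cells, SLC16A3 went from 0.23 to 1.64 and PDK3 from -1.12 to -1.86.

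Other genes of the same pathways were counted from 6 lists, beside 51.3% of all genes called in A375 and 70.0% in SKMel28. Of 22 other glycolysis genes tested, 7 were higher and 6 lower in resistant A375 and 8 higher and 7 lower in resistant SKMel28, with medians of 0.02 and 0.05. The called shares were 59.1% and 68.2%, near those of all genes. PGM1, a phosphoglucomutase on 1p, fell in A375 from 80.5 ± 1.04 to 43.04 ± 1.24 CPM (-0.90 ± 0.04, adjusted p = 6.06e-22), and GALM, a sugar mutarotase, rose in SKMel28 from 23.2 ± 2.08 to 58.03 ± 2.85 CPM (1.32 ± 0.08, adjusted p = 2.51e-19). PGM1 also fell slightly in SKMel28 (-0.18 ± 0.04, adjusted p = 6.36e-05). Of 26 genes for the fate of pyruvate and lactate, 7 were higher and 7 lower in A375 and 9 higher and 13 lower in SKMel28, with medians of 0.01 and -0.07 (53.8% and 84.6% called). PDK2, a further pyruvate dehydrogenase kinase, fell in A375 from 23.2 ± 1.92 to 11.6 ± 0.416 CPM (-0.99 ± 0.08, adjusted p = 1.2e-13) and rose slightly in SKMel28 (0.20 ± 0.08, adjusted p = 0.0361). In SKMel28 MPC2, a subunit of the mitochondrial pyruvate carrier, fell from 55.9 ± 0.984 to 27.6 ± 1.15 CPM (-1.02 ± 0.06, adjusted p = 1.32e-20), and SLC16A7, a pyruvate and lactate transporter, fell from 13.1 ± 0.908 to 4.71 ± 0.231 CPM (-1.47 ± 0.10, adjusted p = 1.18e-17). SLC16A7 was also called lower in A375 (-0.16 ± 0.07, adjusted p = 0.0464). Of 23 genes of the HIF machinery, 9 were higher and 5 lower in A375 and 11 higher and 6 lower in SKMel28, with medians of 0.05 and 0.14 (60.9% and 73.9% called). ARNT2, a HIF partner, fell in A375 from 33.97 ± 2.81 to 15.8 ± 0.899 CPM (-1.11 ± 0.06, adjusted p = 4.35e-19) and less in SKMel28 (-0.36 ± 0.05, adjusted p = 5.96e-08). CUL2, a subunit of the ligase that degrades HIF alpha, rose in SKMel28 from 36.6 ± 0.973 to 61.9 ± 0.260 CPM (0.76 ± 0.05, adjusted p = 1.63e-17), on 10p with its arm median of 0.50. CUL2 also rose slightly in A375 (0.18 ± 0.05, adjusted p = 0.00155).

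Of 51 other hypoxia targets tested, 19 were higher and 11 lower in A375 and 19 higher and 21 lower in SKMel28, with medians of 0.04 and -0.06. The called shares were 58.8% and 78.4%, beside the 51.3% and 70.0% of all genes. RAB20, a small GTPase on 13q (arm median -0.43), fell in A375 from 44.2 ± 1.60 to 15.3 ± 1.06 CPM (-1.53 ± 0.08, adjusted p = 5.52e-21) and rose in SKMel28 (1.15 ± 0.09, adjusted p = 2.6e-15). In SKMel28 MAFF, a transcription factor, fell from 267 ± 6.08 to 29.6 ± 1.86 CPM (-3.18 ± 0.05, adjusted p = 6.2e-39) while it rose in A375 (0.38 ± 0.05, adjusted p = 1.07e-07), and LOX, a collagen cross-linking oxidase, fell from 14.1 ± 0.0969 to 2.20 ± 0.325 CPM (-2.67 ± 0.17, adjusted p = 7.47e-18). Of 13 pentose phosphate and hexosamine genes, 4 were higher and 7 lower in A375 and 5 higher and 5 lower in SKMel28, with medians of -0.11 and 0.00 (84.6% and 76.9% called). PGD, a pentose phosphate dehydrogenase on 1p, fell in A375 from 176 ± 1.12 to 105 ± 3.54 CPM (-0.74 ± 0.04, adjusted p = 8.77e-21) and rose in SKMel28 from 133 ± 1.30 to 229 ± 9.46 CPM (0.79 ± 0.04, adjusted p = 1.42e-22). TKT, transketolase, rose in SKMel28 from 463 ± 28.7 to 866 ± 45.02 CPM (0.91 ± 0.04, adjusted p = 9.91e-24) and fell slightly in A375 (-0.17 ± 0.04, adjusted p = 0.000146). Of 16 genes of the MYC network and energy sensing, 7 were higher and 3 lower in A375 and 5 higher and 8 lower in SKMel28, with medians of 0.15 and -0.17 (62.5% and 81.2% called). MYC rose in A375 from 19.05 ± 1.10 to 34.3 ± 3.18 CPM (0.85 ± 0.06, adjusted p = 8.55e-17) and fell in SKMel28 from 193.2 ± 2.47 to 135.9 ± 2.66 CPM (-0.51 ± 0.04, adjusted p = 1.02e-13). These MYC changes differed by 1.36 ± 0.07 (adjusted p = 1.6e-20). TXNIP and ARRDC4, which restrain glucose uptake, fell in SKMel28 from 115 ± 2.89 to 47.7 ± 2.19 CPM (-1.28 ± 0.05, adjusted p = 2.93e-25) and from 81.01 ± 4.94 to 26.05 ± 0.819 CPM (-1.64 ± 0.07, adjusted p = 3.36e-24). TXNIP also fell in A375 (-0.47 ± 0.07, adjusted p = 8.51e-08), where ARRDC4 was not called (adjusted p = 0.147).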

How the data were processed

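RNA with poly(A) tails was measured in 12 libraries, and the authors deposited unnormalised read counts by gene symbol, in 1 table per library with the closing lines that htseq-count writes. HISAT2, StringTie and the build GRCh38.p12 are named per the submitters' processing notes, while the deposited tables' own names point to STAR, untrimmed reads and unstranded counting on hg38, so which aligner made the counts is not settled. Reads not assigned to a gene (15.1% to 19.5% of counted reads) stayed out of library sizes and tests.

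Counts were filtered with filterByExpr, scaled by TMM and fitted with edgeR 4.0.16 (R 4.3.3, robust quasi-likelihood) in 1 model of 4 group means with 8 residual degrees of freedom. Calls used p-values adjusted by Benjamini-Hochberg across every tested gene, below 0.05. Standard errors are the absolute log2 fold change over the square root of F. The members and lists were chosen with earlier results of these data known. Values in every library are given for genes called in both lines, or called with an absolute log2 fold change of at least 0.75 in 1 line or in the difference, at a mean of 2 CPM or more in the higher group. From each further list, examples come from up to 3 called genes per line with the largest change, at 10 CPM or more and without overlap. Not every gene this rule names is reported here. Genes that do not meet this rule, among them LDHA and LDHB, were described after their values were seen.

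Positions and transcript lengths came from GENCODE 29 (GRCh38), matched by symbol for 14549 of 15506 tested genes (93.8%). Arms were split at the usual GRCh38 centromere positions, and medians needed at least 20 genes. Replicates differed by more than sampling noise (chi-square per degree of freedom 2.81 to 7.45), and none was a copy. The fit was tested on simulated data. Alternatives were DESeq2 1.42.0, its size factors, library-size scaling, no filter, each line alone, a replicate block, each library left out, and exon-union lengths. The floor of 3 reads covers counting error alone, as PCR copies were not marked by molecular identifiers.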

Additional observations from a re-analysis of the deposited data

Results flagged for a closer look

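For 31 of the 42 genes, the change from sensitive to resistant cells in A375 and the change in SKMel28 differed by a test of the difference itself (edgeR contrast, adjusted p below 0.05), which is why they are listed. Values are the log2 fold change in A375 minus that in SKMel28, and 63.8% of all genes tested passed the same test.

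Among genes called in opposite directions in the 2 lines, the difference was 0.44 for PFKM, -2.21 for PFKFB2, 0.44 for ENO2, 0.54 for PKM, -3.92 for EGLN3 and 2.12 for VEGFA. Among genes lower in both resistant lines, it was 0.17 for HK1, 1.00 for HK2, 0.65 for PFKL, 2.36 for PFKFB4, 1.73 for ALDOC, -0.55 for ENO1, -0.74 for PDK3, 0.44 for SLC16A1, 1.42 for SLC16A3, 0.30 for HIF1A, 0.38 for NDRG1 and 0.49 for P4HA2, and a positive value there means the larger fall in SKMel28. Among genes higher in both resistant lines, it was -0.20 for PFKP, -0.14 for PGAM1, -0.66 for EPAS1, -0.29 for BNIP3 and 0.42 for MXI1. Genes called in A375 and not in SKMel28 had -1.02 for SLC2A1 and 0.25 for EGLN1. Genes called in SKMel28 and not in A375 had -0.25 for ALDOA, 1.01 for PGK1, 0.36 for LDHA, -0.37 for LDHB, 0.93 for ANKRD37 and 0.72 for ADM. EGLN3 and ALDOC rest on few reads in 1 line each, 66 and 7 for EGLN3 in A375 and 69 and 12 for ALDOC in SKMel28, sensitive first. PGAM1, at the margin of the test, lost its call without A375 resistant library 1 or 2 (adjusted p = 0.0546 and 0.0583) and under library-size scaling (adjusted p = 0.175).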

How the results depend on the processing

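The counts of genes called stayed within 1.5 times their first value under every alternative run. In A375, 33 became 29 to 31 with 1 library left out and 31 to 35 otherwise, and in SKMel28, 36 became 36 to 37 and 35 to 39. For the difference between lines, 31 became 30 to 32 and 31 to 33. Between sensitive lines, 39 became 38 to 39 with 1 library left out, and between resistant lines the number was 39 each time; other settings gave 39 to 40 in both. With the replicate number as a block, the numbers were 32, 36, 32, 39 and 39 in the same order. In that replicate block HK2 lost its A375 call (adjusted p = 0.0506) and CA9 gained a call in the difference (adjusted p = 0.0479). Residual correlations were weak and do not settle whether replicate numbers pair libraries. Like-numbered libraries of the resistant and sensitive groups had residual correlations of -0.0024 to 0.0301 in A375 and 0.00767 to 0.0471 in SKMel28. Each resistant SKMel28 library correlated best with the sensitive library of its own number, while resistant A375 libraries 2 and 3 did not. Scaling by library size reversed 6 single values between the lines, 4 among sensitive cells (ALDOA 0.041, ENO1 0.129, PKM 0.138 and DDIT4 0.102) and 2 among resistant cells (LDHB 0.092 and SLC16A1 0.006), while it moved the median of all genes to 0.18 and 0.23; the cause was not tested. In A375 the calls of HK1 and HK2 were also lost with DESeq2 size factors (adjusted p = 0.212 and 0.215), library-size scaling (0.154 and 0.156) and no filter (0.239 and 0.220). SLC2A1 became called in SKMel28 under library-size scaling (adjusted p = 0.0077) and without SKMel28 resistant library 1 (0.0393). Depth limits CA9, CA12, EGLN3 and ALDOC, which had 0 to 14 reads over at least 1 group.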
